A study of Mus musculus with 20 samples.

Results

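The classical cadherins E-cadherin (Cdh1), N-cadherin (Cdh2), P-cadherin (Cdh3) and OB-cadherin (Cdh11) and the desmosome genes Dsp, Dsg2, Dsc2, Jup, Pkp1 and Pkp2 were read in 20 RNA-Seq libraries of NMuMG cells, epithelial cells derived from normal mouse mammary gland. The genes were chosen by name, and the 10 of them were found among the 54986 genes of the deposited table. In 5 conditions, read in 10 libraries and called the progression series here, cells were untreated NMuMG, NMuMG treated with TGFβ (the dose and the time are not in the labels), NMuMG carrying an shRNA against hnRNP E1 (E1KD), and cells of the primary tumor (M1P) and of the lung metastases (L1P) that E1KD cells formed in immunodeficient NOD/SCID mice. M1P and L1P cells still carry the hnRNP E1 shRNA and were grown in culture after isolation. In the other 5 conditions, called the Platr18 series, cells carried a further construct: NMuMG with an empty vector (Empty vector), the NMuMG clones 12 and 16 that overexpress the long noncoding RNA Platr18, and the E1KD line with either a scrambled shRNA (E1KD SCR) or a Platr18 shRNA (E1KD Platr18 KD). Each condition had 2 libraries, each clone is 1 line, and nothing in the labels says that the libraries came from separate cultures, so the p-values below measure only the spread between these libraries.

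Cadherins join neighboring cells through their outer domains and hold catenins on the inside. E-cadherin marks epithelial sheets, and a shift from E-cadherin to N-cadherin is a well known sign of epithelial to mesenchymal transition (EMT). Desmosomes are built on the same plan: desmogleins and desmocollins (Dsg2, Dsc2) bridge the cells, plakoglobin (Jup) and plakophilins (Pkp1, Pkp2) bind their tails, and desmoplakin (Dsp) ties the plaque to keratin filaments.

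The values were counts per 1e6 reads (CPM), compared as log2(CPM + 1) with limma in 1 fit of the 20 libraries, only within a series. A gene was tested where it had at least 1 CPM in at least 2 libraries, which held for 17103 genes and for 8 of the 10 members, and called at an unadjusted p under 0.001 and a log2 fold change of at least 1 in size. Fold changes on this scale understate those of low genes. Read from the smallest step between its values, the depth of a library was 50.8 to 147.3 M reads (M, 1e6 reads), and 3 reads were worth 0.0204 to 0.059 CPM. The series differed by library kind: the mitochondrial RNA mt-Rnr2 had 333 to 492 CPM in the progression libraries and 113874 to 165149 CPM in the Platr18 libraries, so levels are not compared between the series. One E1KD library stood apart. Its values summed to 0.729 M against 0.567 M in its replicate, and its size factor by the median of ratios was 1.30 against 0.998. The log2 factors differed by -0.16 in TGFβ against NMuMG, by 0.21 in E1KD against NMuMG and by -0.21 in M1P against E1KD. Values were divided by the factors, so rescaling moved the differences of all genes by about that much in the opposite direction. For the members, rescaled differences are therefore given in these 3 comparisons and in E1KD against TGFβ. They are given where they changed a call or moved a value by over 1.5 times, and for each call. Pcbp1, the gene of hnRNP E1, was at 287 and 312 CPM in NMuMG, 16.6 and 14.2 in E1KD, 26.5 and 27.6 in M1P and 28.6 and 30.5 in L1P. In the Platr18 series it was at 32.3 to 43.7 CPM without and 2.92 to 3.46 CPM with the hnRNP E1 shRNA. Platr18 itself (Lncenc1 in the table) was at 3092 and 3096 CPM in clone 12, 813 and 819.8 in clone 16 and 3.06 and 3.69 in Empty vector, and at 0.136 and 0.17 CPM after its silencing against 2.92 and 3.10 in E1KD SCR. Of 11 markers of luminal mammary epithelium, 4 were under 1 CPM in all 20 libraries (Epcam, Cldn3, Cldn7 and Esrp1), although the list summed to 2020 to 4630 CPM. All 5 endothelial, 5 lung epithelial and 4 adipocyte markers were under 1 CPM in every library, and the 7 immune markers summed to at most 7.28 CPM.

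Untreated NMuMG cells expressed E-cadherin, desmoplakin, plakoglobin and desmoglein 2, with little N-cadherin. Per kilobase of exon (CPM/kb), the only scale on which genes are set side by side, the NMuMG mean (n = 2) was 64.4 for Dsp, 51.3 for Cdh1, 15.0 for Jup, 8.30 for Dsg2, 2.95 for Pkp2 and 2.69 for Cdh2. Cdh3, which lies 46.1 kb from Cdh1 on chromosome 8 (GRCm38.p6), reached at most 0.0981 CPM in any library. Dsc2, the desmocollin of simple epithelia, reached at most 0.0354 CPM. These values, a few reads at most, left Cdh3 and Dsc2 out of the tests. In these cells the desmosomal cadherin read above 1 CPM was thus Dsg2, and P-cadherin was near 0 throughout. Pkp1, a plakophilin best known from stratified epithelia, had 0 reads in both NMuMG libraries. Cdh11, a cadherin of mesenchymal cells, was at 0 in 8 of the progression libraries and at 0.0787 and 0.0185 CPM in E1KD, and lay between 0.937 and 1.45 CPM in all 10 Platr18 libraries. Of 7 myoepithelial or basal markers, 5 were under 1 CPM in all 20 libraries (Krt5, Krt14, Krt17, Trp63 and Oxtr). Acta2 and Myh11, also genes of smooth muscle, were read in all Platr18 libraries, with condition means of 1.44 to 2.26 and 1.64 to 2.13 CPM. Acta2 also had a mean of 1.66 CPM after TGFβ, where Cdh11 was at 0. The part of Acta2 and Myh11 in the Cdh11 reading was not tested.

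**Figure D1:**
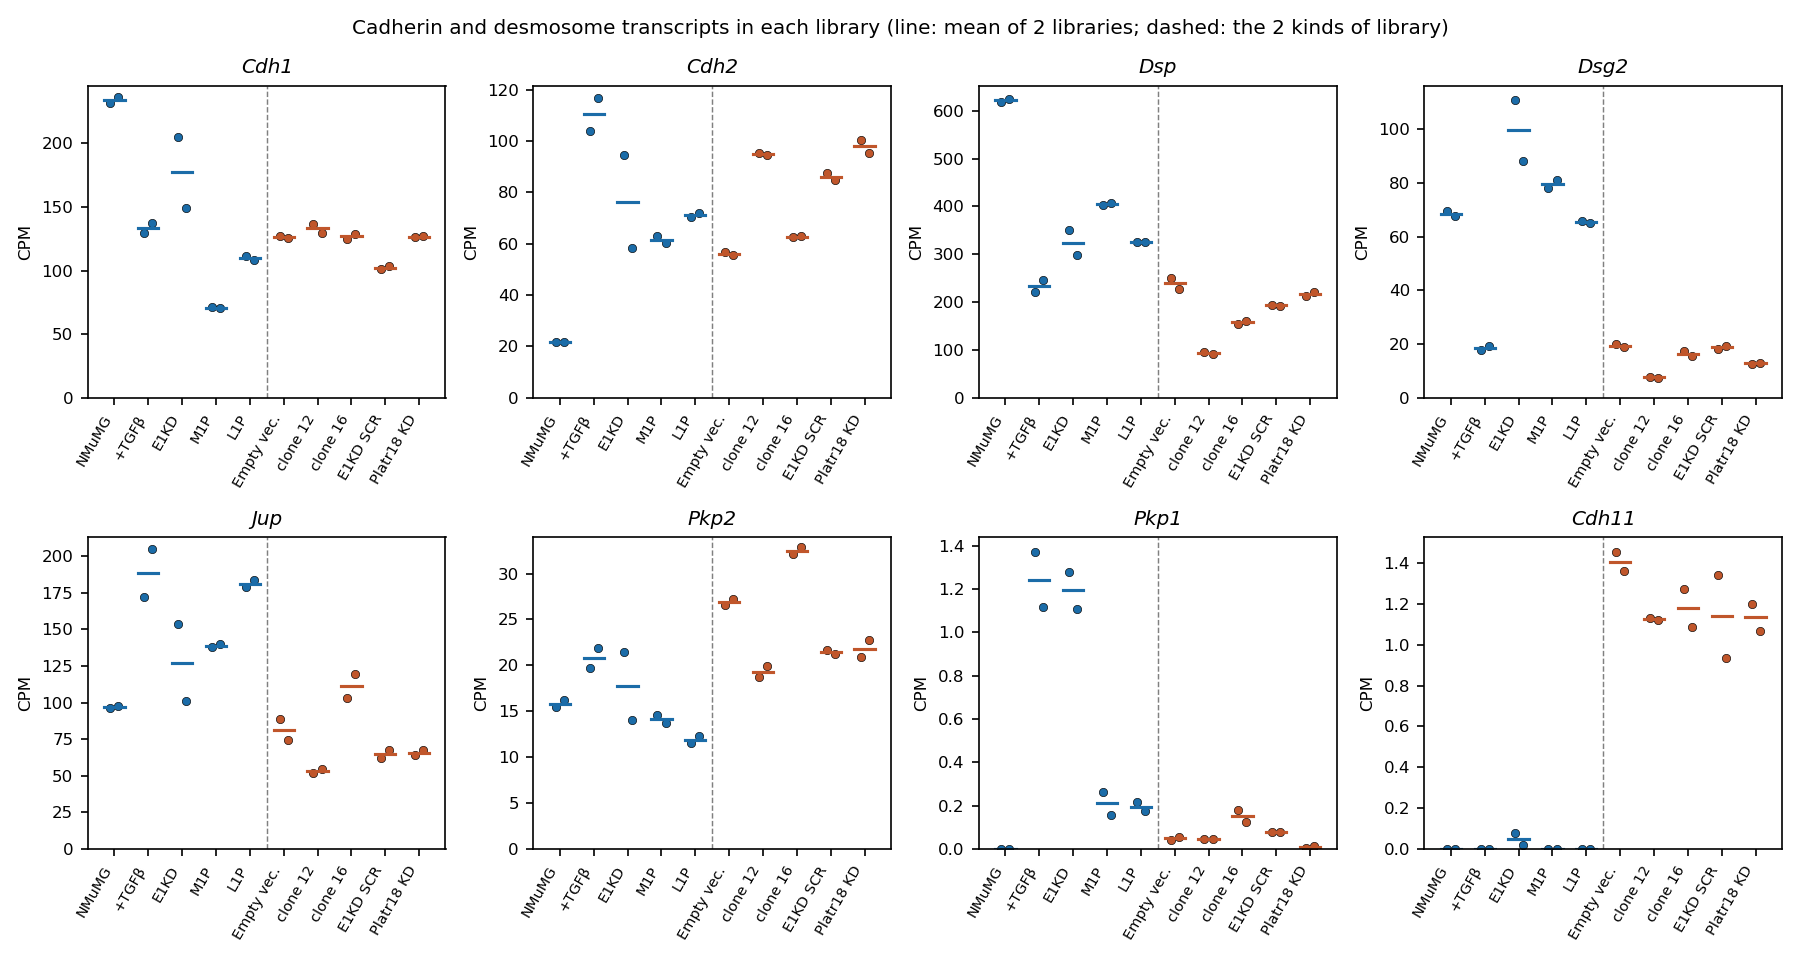
CPM of the 8 tested members in each of the 20 libraries (points) by condition, with the mean of 2 libraries as a line; blue is the progression series, orange the Platr18 series, and a dashed line parts them. Within the progression series Cdh2 was lowest in NMuMG, at 21.6 and 21.8 CPM, where Dsp was highest, at 618 and 625 CPM, and Cdh11 was read near 1 CPM only to the right of the dashed line.

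RefSeq promoter windows (GRCm38.p6, 250 bases before to 50 after the start) were matched for 2 of the 10 members, Dsp and Jup. They are shown because no other member had a window in the promoter set used. The EMT repressors of the Snai and Zeb families bind the E-box, whose letters CACCTG and CAGGTG are each other's reverse complement. The 250 bases before each start held neither (both strands searched), and their GC content was 72.4% for Dsp and 62.0% for Jup. Just inside the Dsp transcript, from base 4 of the transcript, 1 match was found (capitals mark the E-box), at chr13:38151291-38151308 on the plus strand. Of all 32851 promoter windows of this length, 20.2% held 1 of the 2 forms, and binding was not measured, so the match is a description of these letters. The windows are given 5′ to 3′, Dsp from chr13:38151044-38151293 on the plus strand and Jup from chr11:100397791-100398040 on the minus strand.
Dsp E-box: gccgacCAGGTGtggcct
Dsp: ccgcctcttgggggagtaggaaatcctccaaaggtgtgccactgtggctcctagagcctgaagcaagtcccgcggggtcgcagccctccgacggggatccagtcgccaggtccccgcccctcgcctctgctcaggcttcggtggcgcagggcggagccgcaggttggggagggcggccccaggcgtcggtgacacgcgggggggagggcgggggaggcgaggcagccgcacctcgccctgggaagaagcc
Jup: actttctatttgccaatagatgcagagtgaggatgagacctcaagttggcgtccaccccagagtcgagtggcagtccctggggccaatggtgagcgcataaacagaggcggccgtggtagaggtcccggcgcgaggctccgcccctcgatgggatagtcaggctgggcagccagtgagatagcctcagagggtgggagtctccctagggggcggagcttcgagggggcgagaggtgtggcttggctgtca

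TGFβ treatment raised N-cadherin 5.09-fold and lowered desmoplakin and desmoglein 2. E-cadherin was lower and plakoglobin higher than in untreated cells, each by less than the limit for a call. Cdh2 was at 21.6 and 21.8 CPM in NMuMG and at 104 and 117 CPM after TGFβ, a log2 fold change of 2.29 (standard error, SE, 0.144, limma adjusted p = 5.1e-09 with Benjamini-Hochberg adjustment, as for every adjusted p below). Both treated libraries lay far above both controls. Dsg2, the desmosomal cadherin of these cells, fell from 69.4 and 67.8 to 17.8 and 19.4 CPM, by 1.83 on the log2 scale (SE 0.0915, limma adjusted p = 3.97e-10). Dsp, which links the plaque to keratin, fell from 618 and 625 to 220.5 and 245 CPM, by 1.42 (SE 0.0768, limma adjusted p = 9.96e-10). Pkp1 was raised as well: it had 0 reads in both controls and 1.37 and 1.12 CPM after TGFβ, at least 22.7-fold above the 3 reads per library that a count of 0 allows. With these 4 called, 2 in each direction, the members' share stood beside 13.5% of all tested genes.

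Cdh1 was at 232 and 237 CPM in NMuMG and at 129 and 137 CPM after TGFβ. The groups did not overlap, and E-cadherin RNA fell to a ratio of 0.569. The difference of -0.81 (SE 0.102, limma adjusted p = 8.83e-06) stayed inside the limit of 1 that a call needs. Jup, shared between adherens junctions and desmosomes, went the other way from Dsp and Dsg2, from 96.3 and 97.5 to 172 and 205 CPM, with a difference of 0.95 (SE 0.149, limma adjusted p = 7.37e-05). With median-of-ratios scaling it was 1.11 and passed the limit, and without the first TGFβ library it was 1.07. Pkp2, the plakophilin that these cells do express, was at 15.4 and 16.2 CPM in NMuMG and at 19.7 and 21.9 CPM after TGFβ (0.37, SE 0.131, limma adjusted p = 0.0272), which was not called. Rescaled, the differences were -0.65 for Cdh1 and 0.52 for Pkp2. Rescaled, the 4 calls stood, at 2.45 for Cdh2, -1.68 for Dsg2, -1.26 for Dsp and 1.26 for Pkp1. Less RNA per cell and fewer cells with the RNA cannot be told apart in bulk libraries. The 7 mesenchymal markers summed to 548 to 568 CPM in NMuMG and to 1230 to 1440 CPM after TGFβ. Of 5 tested, 3 were called higher, and S100a4 fell from 61.6 to 12.4 CPM. The 11 luminal markers summed to 3040 to 3090 CPM in NMuMG and to 2020 to 2340 CPM after TGFβ, with 1 of 7 tested called higher, while Krt19, a luminal keratin, fell from 485 to 18.1 CPM. The part of these markers in the differences was not tested.

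**Figure D2:**
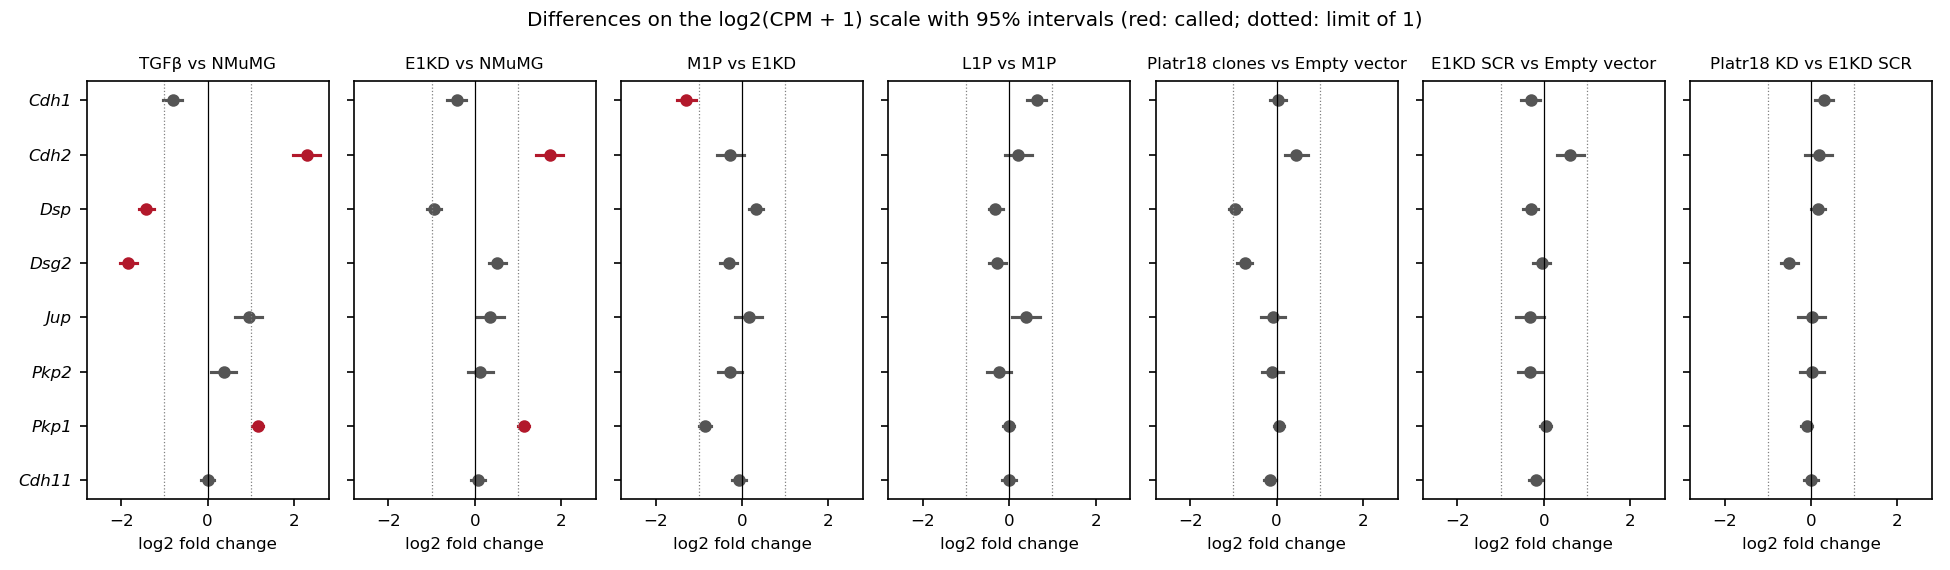
Difference of each tested member in 7 comparisons, as log2 fold change on the log2(CPM + 1) scale (x axis) with its 95% interval as a bar; red marks a call, and dotted lines the limit of 1. TGFβ gave 4 calls, E1KD 2 and M1P 1, and the other 4 comparisons none.

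Silencing of hnRNP E1 in the progression series also raised N-cadherin, and desmoglein 2 was not lower. In E1KD Cdh2 was at 94.6 and 58.3 CPM against 21.6 and 21.8 in NMuMG, which was a log2 fold change of 1.73 (SE 0.144, limma adjusted p = 1.65e-07). Both E1KD values lay above NMuMG, although they differed from each other more in this gene than those of any other condition. Pkp1 was again read only in the silenced cells, at 1.28 and 1.11 CPM, at least 21.8-fold above the limit of 3 reads in NMuMG, and was called. These 2 calls stood beside 9.44% of all genes (1614, and 3073 without the second E1KD library).

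Dsp was at 351 and 298 CPM in E1KD against 618 and 625 in NMuMG, a difference of -0.94 (SE 0.0768, limma adjusted p = 1.29e-07) just short of the limit. It passed the limit after median-of-ratios scaling (-1.15), after scaling to equal sums (-1.12) and without the first E1KD library (-1.06). Dsg2 was higher in E1KD, at 111 and 88.3 CPM against 69.4 and 67.8 (0.52, SE 0.0915, limma adjusted p = 0.00024, not called). Cdh1 was lower, at 205 and 149 CPM (-0.42, SE 0.102, limma adjusted p = 0.00308), and at -0.62 when rescaled. Jup was at 153 and 101 CPM (0.36, SE 0.149, limma adjusted p = 0.0532). Pkp2 overlapped with NMuMG and changed sign with the scaling, from 0.13 to -0.068. Rescaled, the 2 calls were 1.53 for Cdh2 and 1.03 for Pkp1, Dsg2 was 0.32 and Jup was 0.15. The 7 mesenchymal markers summed to 548 to 568 CPM in NMuMG and to 1560 to 2220 CPM in E1KD, with 3 of 5 tested markers called higher, and the 11 luminal markers to 3040 to 3090 and 3170 to 4350 CPM, with 1 of 7 called lower. Their part in these differences was not tested.

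Set directly against TGFβ, E1KD differed most in desmoglein 2. Dsg2 was at 111 and 88.3 CPM in E1KD and at 17.8 and 19.4 CPM after TGFβ, a ratio of 5.36 and a log2 difference of 2.35 (SE 0.0915, limma adjusted p = 1.85e-11). It was the 1 member called, beside 23.3% of all genes, and stayed called at 2.00 when rescaled. Cdh2 was lower in E1KD than after TGFβ (-0.56, SE 0.144, limma adjusted p = 0.00297) and so was Jup (-0.59, SE 0.149, limma adjusted p = 0.00262), while Dsp was higher (0.47, SE 0.0768, limma adjusted p = 7.01e-05), none of them by the limit. Rescaling moved each of these: Cdh2 to -0.92, Jup to -0.95 and Dsp to 0.11. The difference in Cdh1, 0.39 as deposited, was 0.029 after rescaling. Pkp1 overlapped between the 2 conditions as deposited (-0.03), and was -0.23 when rescaled, and Pkp2 went from -0.24 to -0.59.

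In the tumor line M1P, E-cadherin reached its lowest level of the progression series. Cdh1 was at 71.5 and 70.2 CPM in M1P against 205 and 149 in E1KD, a fall by 1.29 on the log2 scale (SE 0.102, limma adjusted p = 2.41e-07). It was -1.09 when rescaled. This was the 1 call among the members, beside 3.59% of all genes (614, and 2020 without the second E1KD library). Pkp1 was at 0.262 and 0.16 CPM against 1.28 and 1.11 in E1KD, a difference of -0.86 (SE 0.0599, limma adjusted p = 6.31e-08) on a scale that compresses such low values, and with a pseudocount of 0.1 it was -2.08 and called. Dsp was higher in M1P than in E1KD, at 404 and 408 CPM (0.33, SE 0.0768, limma adjusted p = 0.00351, not called). Cdh2 (62.9 and 60.2 CPM in M1P) and Jup (138 and 139.9 CPM) lay within the range of the E1KD pair as deposited. Rescaled, both M1P values of Jup lay above both E1KD values, with a difference of 0.36 against 0.15 as deposited. Pkp2 was at 14.6 and 13.8 CPM in M1P against 21.5 and 14.0 in E1KD, so the pairs overlapped. Dsp was 0.53 when rescaled, Dsg2 went from -0.31 to -0.11, Cdh2 from -0.27 to -0.064 and Pkp2 from -0.28 to -0.08. The mesenchymal markers summed to 1390 to 1400 CPM in M1P, with 2 of 5 called lower than in E1KD, and their part was not tested. M1P was thus lowest of the progression series in Cdh1 and below NMuMG alone in Dsp, while TGFβ-treated cells were lowest in Dsp.

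From M1P to the metastasis line L1P none of the 8 members was called by limma, beside 1.21% of all genes. At a limma adjusted p under 0.05, without a limit on the fold, 2 passed, beside 3157 of the 17103 tested genes. Cdh1 was higher in both L1P libraries, at 112 and 108 CPM against 71.5 and 70.2 (0.63, SE 0.102, limma adjusted p = 0.000581), a ratio of 1.56. Dsp was lower, at 326 CPM in both libraries against 404 and 408 (-0.32, SE 0.0768, limma adjusted p = 0.01). Dsg2, at 65.8 and 65.1 CPM against 78.0 and 81.0, and Jup, at 179 and 184 CPM against 138 and 139.9, had limma adjusted p-values of 0.0505 and 0.0968. Cdh2 was at 70.5 and 71.8 CPM in L1P, 0.21 above M1P with a 95% interval from -0.10 to 0.52. Of the mesenchymal markers, which summed to 1510 CPM in L1P, 2 of 5 were called higher, and their part was not tested.

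The ratio of E-cadherin to N-cadherin RNA, taken within a library and therefore free of its scaling, was highest in NMuMG among the 5 conditions of the progression series. It is not compared between the series, since library kind can still act on a ratio of 2 genes. The log2 ratio of Cdh1 to Cdh2 was 3.43 ± 0.015 (SD, n = 2) in NMuMG. It was 0.27 ± 0.057 after TGFβ, 1.24 ± 0.17 in E1KD, 0.20 ± 0.025 in M1P and 0.63 ± 0.051 in L1P. The ratio is read between conditions, not between genes, which differ in length. TGFβ and M1P had nearly the same ratio with different parts: NMuMG minus TGFβ was 0.81 for Cdh1 and -2.29 for Cdh2 (log2), and NMuMG minus M1P was 1.71 for Cdh1 and -1.46 for Cdh2. In the Platr18 series the ratio was 1.17 ± 0.0034 in Empty vector, 0.49 ± 0.039 in clone 12, 1.02 ± 0.025 in clone 16, 0.25 ± 0.053 in E1KD SCR and 0.37 ± 0.062 in E1KD Platr18 KD. Within the desmosome plaque, the log2 ratio of Jup to Dsp was -2.68 ± 0.0016 in NMuMG, -0.31 ± 0.069 after TGFβ, -1.38 ± 0.26 in E1KD, -1.55 ± 0.0061 in M1P and -0.85 ± 0.029 in L1P, and was highest after TGFβ.

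**Figure D3:**
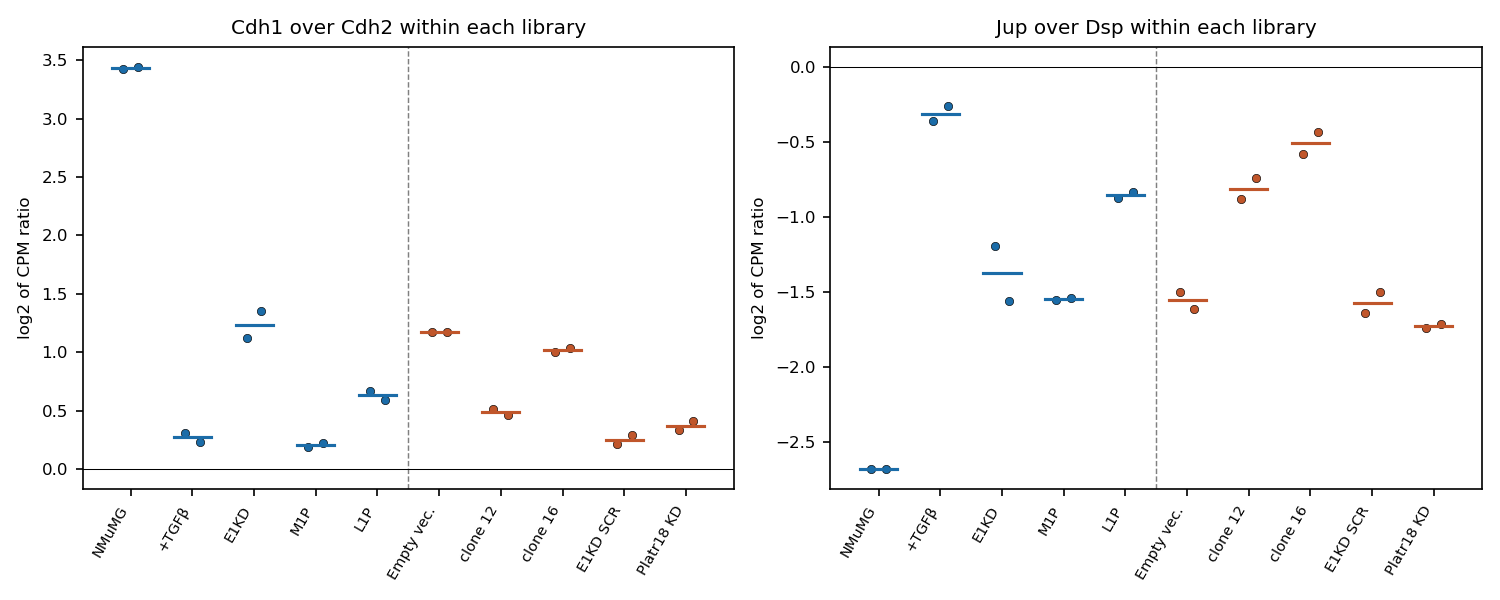
Log2 ratio of CPM within each library (points; line, mean of 2 libraries) for Cdh1 over Cdh2 (left) and Jup over Dsp (right), by condition. Within the progression series the Cdh1 to Cdh2 ratio was 3.43 in NMuMG and at most 1.24 in the other 4 conditions, and the Jup to Dsp ratio was lowest in NMuMG, at -2.68.

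Overexpression of Platr18 went with less desmoplakin in both clones, and with less desmoglein 2 in clone 12. Over both clones no member was called against Empty vector by limma, beside 1.46% of all genes. At a limma adjusted p under 0.05, without a limit on the fold, 3 members passed, beside 4929 of the 17103 tested genes. Dsp was at 250.2 and 228 CPM in Empty vector, 95.9 and 91.5 CPM in clone 12 and 154 and 160.2 CPM in clone 16. All 4 clone libraries lay below both controls, and the difference over both clones was -0.97 (SE 0.0665, limma adjusted p = 1.03e-07). It was -1.04 without the second Empty vector library, which is a call. Clone 12 alone gave 2 calls, a fall of Dsp by 1.34 (SE 0.0768, limma adjusted p = 8.47e-09) and of Dsg2 by 1.25 (SE 0.0915, limma adjusted p = 1.11e-07), beside 3.64% of all genes. Clone 16 alone gave none by limma, beside 1.78%, with Dsp at -0.60 (SE 0.0768, limma adjusted p = 5.86e-05).

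The clones were not alike. Dsg2 was at 19.8 and 18.8 CPM in Empty vector, 7.71 and 7.39 CPM in clone 12 and 17.2 and 15.4 CPM in clone 16, and the difference between the clones was 1.02 (SE 0.0915, limma adjusted p = 7.64e-07). Jup was below Empty vector in clone 12 and above it in clone 16, at 52.0 and 55.0 against 103 and 119 CPM, with 88.8 and 74.5 CPM in Empty vector. The clones differed by 1.04 in Jup (SE 0.149, limma adjusted p = 6.12e-05). These 2 members were called between the clones, beside 4.39% of all genes, and both calls were close to the limit. Leaving out 1 clone library at a time gave 0.94 to 1.09 for Dsg2, which was lost without the second clone 12 or the first clone 16 library, and 0.94 to 1.14 for Jup, lost without the second clone 16 library. Pkp2 followed Jup, at 18.7 and 19.9 CPM in clone 12 against 32.1 and 32.9 CPM in clone 16 (0.72, SE 0.131, limma adjusted p = 0.000503). Cdh2 was higher in clone 12, at 95.4 and 94.5 CPM, than in clone 16, at 62.5 and 63.0 CPM, with 56.6 and 55.6 CPM in Empty vector. Cdh1 was at 136 and 129.9 CPM in clone 12, 125 and 129 in clone 16 and 127 and 126 in Empty vector. Its difference over both clones was 0.041, with a 95% interval from -0.15 to 0.23. The mesenchymal markers summed to 665 to 717 CPM in Empty vector, 1150 to 1260 in clone 12 and 924 to 963 in clone 16, with 2 of 5 called higher over both clones, and their part was not tested. Clone 12 held more Platr18 RNA than clone 16, but with 1 line at each level the dose and the clone cannot be told apart.

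With a vector in both arms, the differences in Cdh2, Cdh1 and Dsp were smaller in size than in the progression series. The arms carried different constructs, a scrambled shRNA in E1KD SCR and an empty vector in its control. Silencing of hnRNP E1 and construct cannot be told apart in this comparison. None of the 8 members was called by limma between E1KD SCR and Empty vector, beside 5.98% of all genes. Without a limit on the fold, 3 had a limma adjusted p under 0.05, beside 7280 of the 17103 tested genes. Cdh2 was at 87.4 and 85.0 CPM in E1KD SCR against 56.6 and 55.6 in Empty vector (0.61, SE 0.144, limma adjusted p = 0.00343). Cdh1 was at 101 and 104 CPM against 127 and 126 (-0.30, SE 0.102, limma adjusted p = 0.0281), and Dsp at 195 and 192 against 250.2 and 228 (-0.30, SE 0.0768, limma adjusted p = 0.00537). These 3 had the sign they had in the progression series. Jup (-0.32, limma adjusted p = 0.102) and Pkp2 (-0.31, limma adjusted p = 0.0695) were lower here and had been at 0.36 and 0.13 there, neither called in either series. Cdh11 differed by -0.18 (limma adjusted p = 0.0698). Dsg2 overlapped, at 18.1 and 19.3 against 19.8 and 18.8 CPM, and Pkp1 was at 0.0812 and 0.0794 against 0.0411 and 0.0579 CPM, a handful of reads. The mesenchymal markers summed to 1180 to 1250 CPM in E1KD SCR, with 2 of 5 called higher than in Empty vector, and their part was not tested.

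The difference between the silencing effects of the 2 series was tested as an interaction, in which 2 members were called beside 3.51% of all genes (601, and 1778 without the second E1KD library). For Cdh2 it was -1.12 (SE 0.204, limma adjusted p = 0.00123), and for Pkp1 it was -1.09 (SE 0.0846, limma adjusted p = 4.31e-07). Both effects were smaller in the Platr18 series. The Cdh2 call depended on the setting. The interaction was -0.96 after median-of-ratios scaling, -0.93 after scaling to equal sums and -0.78 without the first E1KD library, each short of the limit. For Pkp1 it was -0.99 after median-of-ratios scaling. The difference for Dsp was 0.64 (SE 0.109, limma adjusted p = 0.000714) and was not called. Pcbp1 was read at 299.5 CPM in NMuMG and at 32.3 CPM in Empty vector, but levels are not compared between the library kinds. The arms of the Platr18 comparison also carried different constructs. Library kind, construct and any difference in starting level therefore cannot be told apart.

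**Figure D4:**
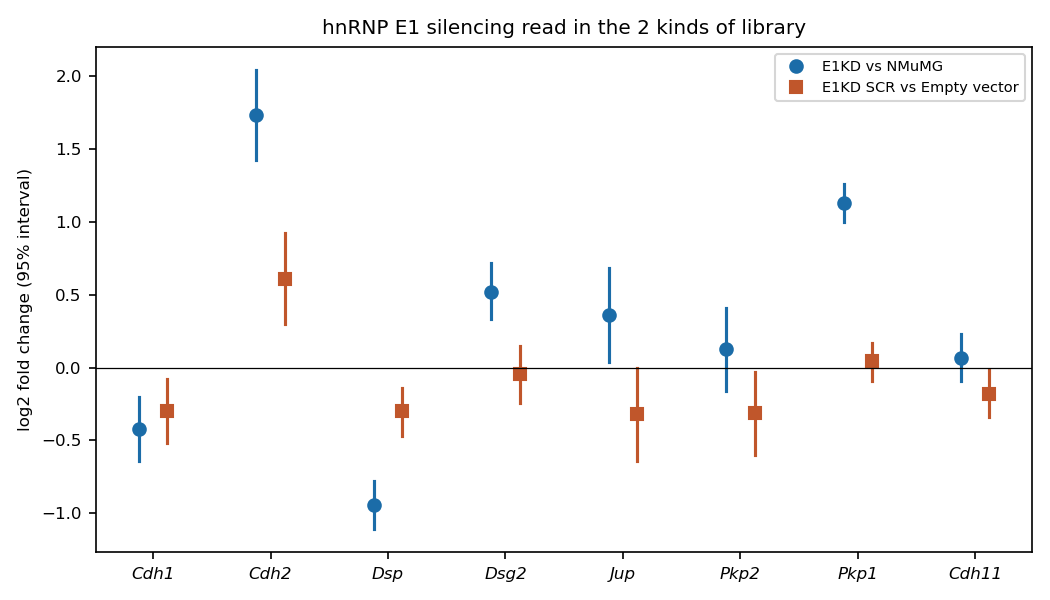
Log2 fold change with its 95% interval for each tested member after hnRNP E1 silencing, for E1KD against NMuMG (circles) and for E1KD SCR against Empty vector (squares). As deposited, the values were 1.73 and 0.61 for Cdh2, -0.94 and -0.30 for Dsp, 0.52 and -0.044 for Dsg2, and 0.36 and -0.32 for Jup. They were 1.13 and 0.042 for Pkp1, -0.42 and -0.30 for Cdh1, 0.13 and -0.31 for Pkp2, and 0.068 and -0.18 for Cdh11. The direct test of the difference called 2 members, Cdh2 and Pkp1, beside 3.51% of all genes. Its median over all genes was -0.17.

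Silencing of Platr18 in E1KD cells called none of the 8 members by limma, beside 1.48% of all genes. Without a limit on the fold, 1 had a limma adjusted p under 0.05, beside 3334 of the 17103 tested genes. Dsg2 was lower, at 12.7 and 13.01 CPM against 18.1 and 19.3 in E1KD SCR (-0.51, SE 0.0915, limma adjusted p = 0.00124), a ratio of 0.687. Cdh1 was at 126 and 127 CPM against 101 and 104 (0.31, SE 0.102, limma adjusted p = 0.0504), which put it at the level of Empty vector. Cdh2 was at 100.5 and 95.5 CPM against 87.4 and 85.0, with a 95% interval of the difference from -0.13 to 0.49. The mesenchymal markers summed to 657 to 660 CPM after Platr18 silencing against 1180 to 1250 CPM in E1KD SCR, with 2 of 5 tested markers called lower, and their part in these differences was not tested.

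Ordered by level, each member had its own ranking of the conditions. In the progression series Cdh1 ran from NMuMG (234 ± 3.69 CPM, SD, n = 2) through E1KD (177 ± 39.8), TGFβ (133 ± 5.57) and L1P (110.2 ± 2.40) to M1P (70.8 ± 0.991), and every pair of neighbors had a limma adjusted p under 0.05, the largest being 0.0329 for TGFβ and L1P. Rescaled, E1KD and TGFβ no longer separated in Cdh1 (limma adjusted p = 0.574). Cdh2 ran from TGFβ (110.4 ± 9.0) through E1KD (76.4 ± 25.7), L1P (71.2 ± 0.955) and M1P (61.5 ± 1.92) to NMuMG (21.7 ± 0.117). E1KD and L1P (limma adjusted p = 0.772) and L1P and M1P (limma adjusted p = 0.407) did not separate in the fit. The fit pools the spread of all 10 conditions, and the E1KD pair was the widest in this gene. Both L1P libraries lay above both M1P libraries. Dsp ran from NMuMG (622 ± 4.91) through M1P (406 ± 3.01), L1P (326 ± 0.0919) and E1KD (324 ± 37.4) to TGFβ (233 ± 17.5), with L1P and E1KD not told apart (limma adjusted p = 0.939). Rescaled, L1P lay above E1KD (limma adjusted p = 0.0123) and E1KD was not told apart from TGFβ (limma adjusted p = 0.0977). The Cdh1 and Dsp orders thus placed M1P at opposite sides of E1KD and L1P. Dsg2 ran from E1KD (99.7 ± 16) through M1P (79.5 ± 2.10), NMuMG (68.6 ± 1.12) and L1P (65.5 ± 0.515) to TGFβ (18.6 ± 1.09), where M1P and NMuMG (limma adjusted p = 0.0747) and NMuMG and L1P (limma adjusted p = 0.611) did not separate. Rescaled, M1P and NMuMG did (limma adjusted p = 0.00603) and E1KD and M1P did not (limma adjusted p = 0.129). Jup ran from TGFβ (189 ± 23.1) through L1P (181 ± 3.71), M1P (139 ± 1.62) and E1KD (127 ± 37.0) to NMuMG (96.9 ± 0.874), and no pair of neighbors separated, the smallest limma adjusted p being 0.0532. Rescaled, every step but E1KD to NMuMG (limma adjusted p = 0.152) had a limma adjusted p under 0.05. Pkp2 spanned 11.9 to 20.8 CPM, with no neighbors that separated as deposited. Rescaled, TGFβ lay above NMuMG (limma adjusted p = 6.5e-06) and M1P above L1P (limma adjusted p = 0.0083).

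In the Platr18 series Cdh1 was flat, at condition means of 126 to 133 CPM in all but E1KD SCR, which was at 102 CPM. Dsp ran from 239 ± 15.8 CPM in Empty vector to 93.7 ± 3.05 in clone 12, and clone 16 lay between E1KD SCR (limma adjusted p = 0.00592) and clone 12 (limma adjusted p = 3.07e-06). Dsg2 was also lowest in clone 12, at 7.55 ± 0.224 CPM, below E1KD Platr18 KD at 12.9 ± 0.204 (limma adjusted p = 1.83e-05). Overlapping genes limit these counts. A transcript over Dsp reached 1.28 CPM and one antisense to Dsg2 reached 2.23 CPM in some library, and whether the counting used strand is not given in the sources used here.

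Over the 10 condition means, each centred on its series, the members did not move as one set. The 5 Pearson correlations largest in size were -0.73 for Cdh2 and Dsp, 0.67 for Cdh2 and Pkp1, 0.65 for Dsp and Dsg2, 0.58 for Pkp1 and Pkp2 and -0.57 for Dsp and Pkp1, and the value for Cdh1 and Cdh2 was -0.47. These values describe 10 conditions that share cell line, controls and library kind. Among 1739 or 1740 other variable genes, those most like Cdh2 were Tnfrsf1b (r = 0.949), Dusp8 (0.943) and Jun (0.938), and those most like Cdh1 were Slfn2 (0.906), Adora1 (0.903) and Hook1 (0.902). Nearest to Dsp were Fgf1 (0.934), Pls1 (0.916) and Stbd1 (0.902), and to Dsg2 Nuf2 (0.959), Ston2 (0.951) and RP24-468O24.4 (0.950). Nearest to Jup were Ppic (0.930), Rdh10 (0.874) and Mfhas1 (0.835), and to Pkp2 Igsf8 (0.960), a gene listed without a name (0.953) and Ppp2r5b (0.940). For Pkp1 the closest were Ankrd1 (0.889), Pfkfb3 (0.877) and Tnk2 (0.872), and for Cdh11, whose means were near 0 in the progression series, Arhgef26 (0.747), Irs1 (0.631) and Myo5b (0.622).

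Of 56 further junction genes and regulators, 30 were tested. Their differences are given as deposited, without rescaled values. After TGFβ, 7 of 10 catenins, nectins and other adherens junction partners had a limma adjusted p under 0.05, beside 9474 of the 17103 tested genes. The median log2 fold change of the 10 was 0.19 against -0.077 over all genes. None of the 10 was called lower, and 4 were called higher. They were Nectin4 (2.12, 0.127 to 3.91 CPM), Nectin2 (1.97, 18.7 to 76.3 CPM), Vcl (vinculin, which couples catenins to actin, 1.69) and Ctnnd1 (p120 catenin, which holds cadherins at the membrane, 1.09). Below the limit for a call, Ctnnb1 (β-catenin), named after its values were seen, was at 643 against 1014 CPM (-0.66, limma adjusted p = 0.000154). Of 5 other desmosome and linker genes 1 was called: Ppl (periplakin), which links keratin to the plaque, fell by 2.68, from 257 to 39.4 CPM. Of 5 other cadherins 3 were called, Cdh6 higher (2.11, 128 to 556 CPM), and Cdh17 (-2.87) and Cdh16 (-1.51) lower. Of the 5 tested regulators known to bind the Cdh1 promoter, 3 rose, Zeb2 (3.08), Snai1 (2.78) and Zeb1 (1.12). Their part in the Cdh1 difference of -0.81 was not tested. Of the 5 proteases and ligases known to act on E-cadherin, Adam15 rose (1.09).

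In E1KD against NMuMG 2 of the 10 partners rose, Nectin1 (1.82, from 0 CPM in both NMuMG libraries) and Vcl (1.45). No other desmosome or linker gene was called by limma. Of these, 2 of 5 had a limma adjusted p under 0.05, beside 9685 of the 17103 tested genes. Of the 5 cadherins, Cdh16 fell by 3.88, from 74.3 to 4.26 CPM. The regulators Snai1 (2.00), Zeb2 (1.53) and Snai2 (1.03) rose, and so did Adam15 (1.17), as deposited. Rescaling moved differences in this comparison downward by up to about 0.21. Snai2 and Adam15 lay closer than that to the limit of 1, so these calls may not hold when rescaled. Against TGFβ, E1KD held more Ppl (2.69) and Cdh17 (2.27) and less Nectin2 (-2.02) and Cdh6 (-1.52), in calls for 4 of 10 partners, 2 of 5 desmosome and linker genes, 4 of 5 cadherins and 1 of 5 regulators. From E1KD to M1P, Cdh17 fell by 2.28, Cdh16 fell by 2.00 and Nectin1 fell by 1.65. No regulator was called by limma, and 3 of 5 had a limma adjusted p under 0.05, beside 8391 of the 17103 tested genes. The part of the regulators in the Cdh1 difference was not tested. Snai2, named after its values were seen, was at 1.93 and 1.66 CPM in E1KD and at 3.89 and 3.545 CPM in M1P. The scale compresses such low values. As deposited, the mean of Zeb2 was also higher in M1P, and those of Snai1, Zeb1 and Tcf3 were lower. From M1P to L1P only Nectin1 was called, higher by 1.59.

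In the Platr18 series, E1KD SCR had 2 calls against Empty vector, Cdh16 (-4.29, 106 to 4.47 CPM) and Nectin3 (-1.29). Cdh16, a cadherin first known from kidney, was thus called lower in the line with the hnRNP E1 shRNA in both series. Both clones together gave no call in these lists by limma, and Platr18 silencing gave none. Over both clones 15 of 30 genes had a limma adjusted p under 0.05, beside 4929 of the 17103 tested genes. After Platr18 silencing 11 of 30 did, beside 3334. In clone 12, Cdh16 fell by 1.74 and Snai2 rose by 1.29, and clone 16 had more Cdh16 (2.51), Pkp3 (1.13) and Nectin3 (1.11) and less Snai2 (-1.14) and Cdh13 (-1.07) than clone 12. The interaction of silencing with series called Snai1 (-1.74), Nectin1 (-1.40) and Zeb2 (-1.32), all with smaller effects in the Platr18 series, as for Cdh2 and Pkp1.

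**Figure D5:**
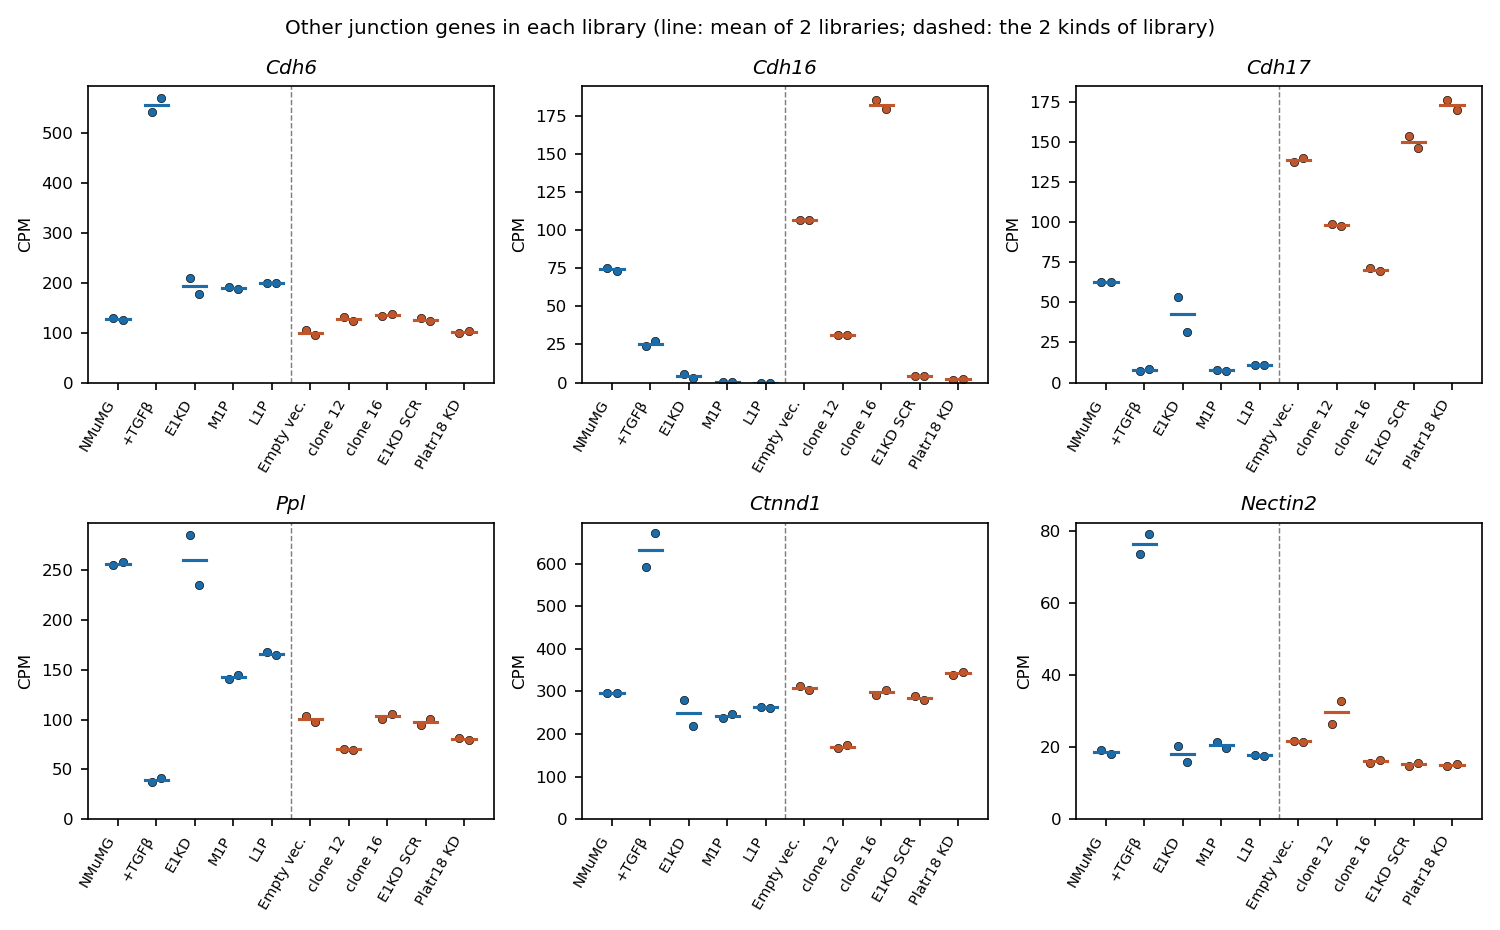
CPM of 6 further junction genes in each library (points; line, mean of 2 libraries) by condition, with a dashed line between the series. Within the progression series Cdh6, Ctnnd1 and Nectin2 were highest and Ppl lowest after TGFβ, and Cdh16 was at or under 5.57 CPM in all libraries with the hnRNP E1 shRNA.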

How the data were processed

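RNA was extracted with Trizol from cultured cells, and libraries followed standard Illumina protocols per the labels. The authors aligned the reads with Bowtie2 2.2.5 to GRCm38.p6, assigned them to genes of the mouse M18 annotation by Partek's expectation-maximization, and deposited 1 table of CPM with 0.0001 added to every value. That number was subtracted. Low values were whole reads (within 0.02, under 20 reads) for 91.8% to 92.6% of values in the progression libraries and 97.4% to 98.2% in the Platr18 libraries, so the CPM were not turned back into counts and no count model was used. Depth was read from the smallest step of each library.

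Values were fitted as log2(CPM + 1) with limma 3.58.1 in R 4.3.3 (lmFit, eBayes with trend), with 10 condition means, 20 libraries and 10 residual degrees of freedom, since the authors' Gene Specific Analysis could not be run here. Genes were called below 0.001 in unadjusted p and from 1 upward in the size of the log2 fold change, with Benjamini-Hochberg adjusted p over 17103 genes. On simulated data of E1KD against NMuMG with 200 of 17103 genes changed by 2 (log2), 200 were called, and 2 of 16903 unchanged genes. The changed genes were drawn from those of higher level, and the change was well above the call limit. The noise was normal, with the same variance of a gene in every condition and no library that stood apart. The simulation therefore cannot show how calls fare near 1 CPM, near the limit or with an uneven E1KD pair. The alternatives were pseudocount 0.1, no filter, a mean of at least 5 CPM, other scalings, fewer libraries in the fit, other call limits, the replicate number as a block, and leaving out each library.

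The members and the gene lists were chosen with earlier results of these data known. From each further list, called genes with the largest fold change were named, at most 4 a comparison. Genes like a member had the highest Pearson correlation over the 10 condition means centred by series, among tested genes with a mean of at least 5 CPM and a standard deviation of at least 0.5. Promoters are RefSeq sequences. Tables and figures used Python 3.11.15, pandas 2.3.3, numpy 2.4.6 and matplotlib 3.10.9. Positions of genes are from the GRCm38.p6 annotation. RT-PCR, immunoblots and animal data of the study were not analysed here.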

Additional observations from a re-analysis of the deposited data

Results flagged for a closer look

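The change in the line with the hnRNP E1 shRNA differed between the 2 series for Cdh2, at -1.12 (log2), and for Pkp1, at -1.09. This was a test of the difference itself. Both changes were smaller in the Platr18 series, where the arms carried different constructs. The values behind them were a Cdh2 rise of 1.73 against a difference of 0.61, and a Pkp1 rise of 1.13 against 0.042, and without the first E1KD library the Cdh2 difference was -0.78. The 2 Platr18 clones differed by 1.02 in Dsg2 and by 1.04 in Jup, each higher in clone 16, in a direct test between them. Jup lay below Empty vector in both libraries of clone 12 and above it in both of clone 16.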

How the results depend on the processing

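Over the 12 comparisons, 1361 values of single members were recomputed under an alternative. Of these, 1310 kept their side of the limits, 9 lost a call, 42 gained one and 0 called values changed sign, while 27 differences that were not called did. With an adjusted p under 0.05 and no limit on the fold, the members called numbered 7 after TGFβ (4 as reported), 5 in E1KD (2), 4 in M1P (1), 2 in L1P (0), 3 over both clones (0), 3 in E1KD SCR (0) and 1 after Platr18 silencing (0). Differences thereby called were those of Cdh1 (0.39), Cdh2 (-0.56), Dsp (0.47) and Jup (-0.59) in E1KD against TGFβ. Others were in clone 12 for Cdh2 (0.75), Jup (-0.60) and Pkp2 (-0.46), in clone 16 for Dsp (-0.60) and Jup (0.44), between the clones for Cdh2 (-0.59), Dsp (0.74) and Pkp2 (0.72), and in the interaction for Dsp (0.64), Dsg2 (-0.57) and Jup (-0.68). The numbers over all genes under this rule are in the next paragraph. Genes with a mean of at least 5 CPM leave out Pkp1 by construction and gave 1 call in E1KD, and pseudocount 0.1 gave 2 in M1P. Over the clones, leaving out 1 library at a time gave 0 to 1 (1 without the second Empty vector library), and clone 12 alone 2. Between the clones Dsg2 was 0.98 with equal sums, and leaving out 1 library gave 0.94 to 1.09 for Dsg2 and 0.94 to 1.14 for Jup. The Cdh2 interaction lost its call at -0.96 with median-of-ratios scaling, -0.93 with equal sums and -1.12 with only the groups compared in the fit, and ranged from -1.47 to -0.78 (lowest in size without the first E1KD library) when leaving out 1, while Pkp1 was -0.99 with median-of-ratios scaling. The replicate block gave the same number of members called in every comparison, and with the numbers of clone 16 crossed, which was chosen after seeing the data, it gave 0 members and 249 genes over the clones. The cause of these changes was not tested. Same-numbered libraries did not deviate together (correlations from -0.125 to 0.127), so the numbers were not taken to pair them.

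Over all genes, pseudocount 0.1 gave 1130 calls in M1P (614 as reported), 465 in L1P (207), 615 over the clones (249), 1707 in E1KD SCR (1022) and 633 after Platr18 silencing (253). A mean of at least 5 CPM gave 948 in E1KD (1614), 329, 115, 127, 557 and 139 in the same order. Without a limit on the fold there were 9474 after TGFβ (2311), 9685 in E1KD, 8391, 3157, 4929, 7280 and 3334. In the 5 further comparisons the ratio to the reported number was 1.3 to 2.1 with pseudocount 0.1, 0.512 to 0.74 with a mean of at least 5 CPM and 3.06 to 13 without a limit on the fold. Without the second E1KD library there were 3073 calls in E1KD, 2020 in M1P and 1778 in the interaction (601), and clone 12 alone gave 623. Median-of-ratios scaling moved the share of calls that were higher from 43.3% to 54.7% after TGFβ, from 68.3% to 52.5% in E1KD, from 32.2% to 50.4% in M1P, from 73.6% to 50.2% in E1KD against TGFβ and from 162 of 601 to 217 of 542 in the interaction. Scaling to equal sums moved it to 55.1% in E1KD, 48.3% in M1P, 63.0% in E1KD against TGFβ and 244 of 594 in the interaction. With 2 libraries per condition and about 3 reads as the floor, Pkp1 and Cdh11 are read near the limit of these libraries.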
